A study of Mus musculus with 6 samples.

Results

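The 8 genes described here encode the Fc receptors of mouse leukocytes and their shared signalling chain: Fcgr1, Fcgr2b, Fcgr3, Fcgr4, Fcer1g, Fcer1a, Fcer2a and Fcgrt. They were chosen by symbol from the gene lists of the deposited matrices, and all 8 were found among the 32285 genes of the enriched fraction and the 54752 genes of the depleted fraction. Fc receptors bind the constant part of antibodies. Fcgr1 is the high-affinity IgG receptor, Fcgr3 and Fcgr4 are activating receptors of lower affinity, and Fcgr2b is the inhibitory IgG receptor, which carries an ITIM (an inhibitory tyrosine motif) in its tail. The activating receptors reach the cell surface and signal through the gamma chain encoded by Fcer1g, which carries an ITAM, the activating counterpart of that motif. Fcer1a encodes the IgE-binding chain of the mast cell and basophil receptor, Fcer2a the low-affinity IgE receptor CD23 of B cells, and Fcgrt the heavy chain of the neonatal Fc receptor, which pairs with beta-2 microglobulin and returns IgG from endosomes to the surface.

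Lymph node cells of C57Bl/6 mice in 3 arms were profiled as single cells. The arms were mice bearing the melanoma line YUMMER1.7, mice bearing the melanoma line YUMM1.7, and naive mice without a tumour, and the nodes of the tumour arms were the tumour-draining inguinal and axillary ones. Each arm gave a fraction enriched on CD11b and/or CD11c beads and a fraction labelled as de-enriched for CD45, called the depleted fraction here, so that there were 6 libraries of pooled mice with 1 library per arm and fraction. With a single library behind each arm of a fraction, no comparison between arms has a replicate check and no test was possible. The intervals below are 95% intervals from the number of UMIs, and say nothing of the spread between mice.

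Between 67709285 and 86471908 UMIs (unique molecular identifiers, each marking 1 captured transcript) were deposited per library. The 8 genes held 0.170%, 0.141% and 0.0935% of all UMIs in the YUMMER1.7, YUMM1.7 and naive enriched libraries, and 0.0266%, 0.0280% and 0.0307% in the depleted libraries of the same arms. Filtering kept 6474, 7092 and 9951 cells of the enriched fraction and 6582, 8255 and 12339 cells of the depleted fraction, with median UMIs per cell of 10060, 9353 and 6646 and of 4801, 4535 and 4120. Any 2 libraries shared between 5 and 37 cell barcodes, at most 0.441% of a library. Cells were clustered without the 8 genes and named from marker genes, so that the clusters were not drawn by the receptors themselves. Most defining markers were present: all 10 macrophage, 8 classical monocyte, 10 non-classical monocyte, 11 neutrophil, 9 NK, 8 B cell and 9 mast cell markers had UMIs in the matching class in every library. Other lists were incomplete. In the class of mast cells and basophils, Prss34 had no UMI in naive of either fraction, and Mcpt8 and Prss34 had none in enriched YUMM1.7. Tnfrsf17 was missing in enriched naive plasma cells, Klk1 in enriched plasmacytoid dendritic cells of both tumour arms, and Ccl21a in naive lymphatic endothelium. A single UMI sufficed for presence, so presence shows detection only and cannot bear on the class names. Depleted YUMM1.7 B cells, for example, also had UMIs of all 9 NK and all 9 T cell markers. Levels are given in CPM, the UMIs of a gene scaled to a total of 1000000 UMIs for the class in that library. They are compared between classes and arms for 1 gene at a time, because capture differs between genes. A gene is called past 1.5-fold when its log2 ratio exceeds that fold and the pair of libraries holds at least 50 of its UMIs. Both tumour arms are set against the same naive library, so their ratios are not independent.

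**Figure D1:**
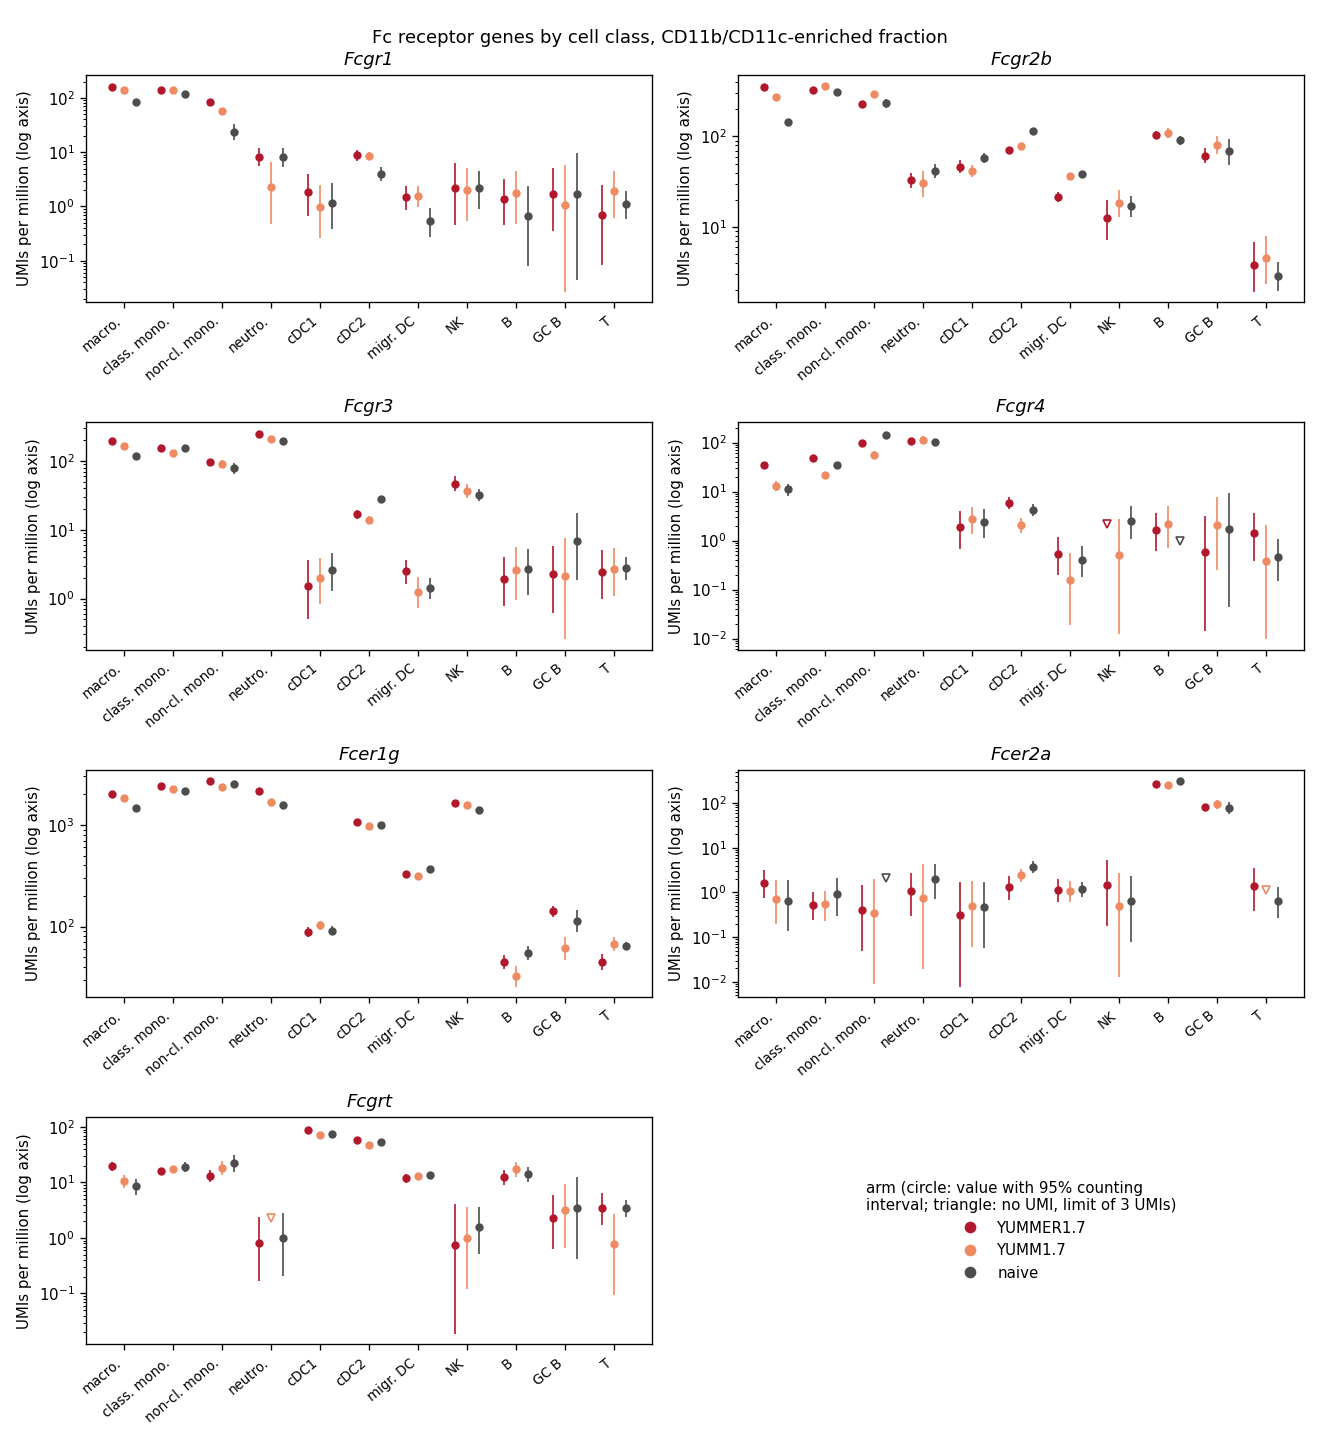
Level of 7 members (CPM on a log axis; Fcer1a is plotted separately) in 11 cell classes of the enriched fraction, with 1 point per library for YUMMER1.7, YUMM1.7 and naive, bars for the 95% counting interval and triangles for the limit of 3 UMIs where no UMI was seen. Fcer1g stood above 1000 CPM in macrophages, both monocyte classes, neutrophils and NK cells in every arm, while Fcer2a lay between 253 and 309 CPM in B cells.

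The activating IgG receptors marked the myeloid classes in different orders. Fcgr1 was highest in macrophages and classical monocytes, whose ranges over the 3 libraries overlapped, followed by non-classical monocytes. It was low in conventional type 2 dendritic cells (cDC2, up to 8.75 CPM) and neutrophils (up to 8.31 CPM). Fcgr3 was highest in neutrophils, then in macrophages and classical monocytes without a gap between them, then in non-classical monocytes. Fcgr4 was highest in neutrophils and non-classical monocytes, whose ranges overlapped, and lower in classical monocytes and macrophages. T cells, used as a reference for free RNA in the suspension, held 0.70, 1.91 and 1.12 CPM of Fcgr1 in YUMMER1.7, YUMM1.7 and naive, and 1.41, 0.38 and 0.47 CPM of Fcgr4. Of these T cells, 119 of 397, 201 of 366 and 711 of 1614 were in a cluster led by Il23r and Cxcr6.

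Fcgr1 was higher in the tumour arms than in the naive arm in macrophages. It stood at 161 CPM in YUMMER1.7 macrophages (871 UMIs in 330 cells) and 142 CPM in YUMM1.7 macrophages (774 UMIs in 417 cells), against 82.9 CPM in naive macrophages (382 UMIs in 919 cells). The log2 ratio over naive was 0.95 (0.78 to 1.13) for YUMMER1.7 and 0.77 (0.60 to 0.95) for YUMM1.7. Both tumour libraries lay above the naive library by more than counting error, and YUMMER1.7 lay slightly above YUMM1.7 (log2 ratio 0.18, 0.04 to 0.32). When every cell was given equal weight the ratios were 0.57 and 0.35, which are under 1.5-fold.

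The macrophage class was made of 3 clusters in proportions that differed between arms. Of the naive macrophages, 694 were in a shallow cluster led by Marco and Cd209b, with a median of 1054.5 UMIs per cell, against 92 and 175 cells of it in YUMMER1.7 and YUMM1.7. Without that cluster, Fcgr1 stood at 160.5 CPM in YUMMER1.7, 141.1 CPM in YUMM1.7 and 76.5 CPM in naive. The deepest cluster, with Asic2, Cd5l and Mrc1 among its leading genes, had the highest Fcgr1, with 273 and 237 CPM in YUMMER1.7 and YUMM1.7 against 160 CPM in naive. In the cluster led by Mertk and Itga9, Fcgr1 was 96.0 CPM in YUMMER1.7 and 59.0 CPM in YUMM1.7, against 49.0 CPM in naive. In this last cluster only YUMMER1.7 was clear of naive by counting error, since the interval of the YUMM1.7 ratio ran from -0.07 to 0.61.

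The ratio of Fcgr1 was widest in non-classical monocytes, a single cluster led by Ace, Pparg and Ear2. Fcgr1 stood at 85.8 CPM in YUMMER1.7 (415 UMIs, 444 cells) and 56.4 CPM in YUMM1.7 (158 UMIs, 321 cells), against 23.9 CPM in naive (34 UMIs, 211 cells). The log2 ratio over naive was 1.85 (1.34 to 2.40) for YUMMER1.7 and 1.24 (0.70 to 1.82) for YUMM1.7. All 3 libraries were separated, with YUMMER1.7 over YUMM1.7 at 0.61 (0.34 to 0.88). In cells thinned to 2000 UMIs, 15.2%, 8.39% and 6.15% of the non-classical monocytes of YUMMER1.7, YUMM1.7 and naive had a UMI of Fcgr1, against 0.261%, 0.865% and 0.194% of T cells. Without thinning the shares were 47.1%, 30.8% and 13.3%, at median depths of 11045.5, 8511 and 6608 UMIs, against T cell depths of 6791, 6857 and 6445.5 UMIs. Thinning brought the YUMM1.7 ratio to 0.55, which is under 1.5-fold, and the YUMMER1.7 over YUMM1.7 ratio was 0.40 with finer clusters. The summed level of the 8 classical monocyte markers in the same cells was 12140, 9510 and 5746 CPM in YUMMER1.7, YUMM1.7 and naive, and its part in the Fcgr1 ratio was not tested.

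Classical monocytes as a class held 138.8, 138.5 and 115.7 CPM of Fcgr1 in YUMMER1.7, YUMM1.7 and naive, so that both tumour arms were higher by less than 1.5-fold. Their 2 deep clusters differed. In the cluster led by Ly6i and Ms4a6d, Fcgr1 was 131 and 120 CPM in YUMMER1.7 and YUMM1.7 against 75.7 CPM in naive, log2 ratios of 0.79 (0.593 to 0.996) and 0.66 (0.46 to 0.87). In the cluster led by Vcan, Fn1 and F13a1 it was 157, 178 and 174 CPM in the same order, and both ratios over naive included 0. cDC2 held little Fcgr1, but more in the tumour arms: 8.75 and 8.55 CPM in YUMMER1.7 and YUMM1.7 against 3.97 CPM in naive, with log2 ratios of 1.14 (0.61 to 1.68) and 1.11 (0.62 to 1.61). Classical monocyte markers summed to 1687, 1318 and 903 CPM in these cDC2, and their part in the difference was not tested. Fcgr1 was thus above naive in both tumour arms in macrophages, non-classical monocytes, 1 of 2 deep classical monocyte clusters and cDC2. In classical monocytes as a class it was higher by less than 1.5-fold.

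**Figure D2:**
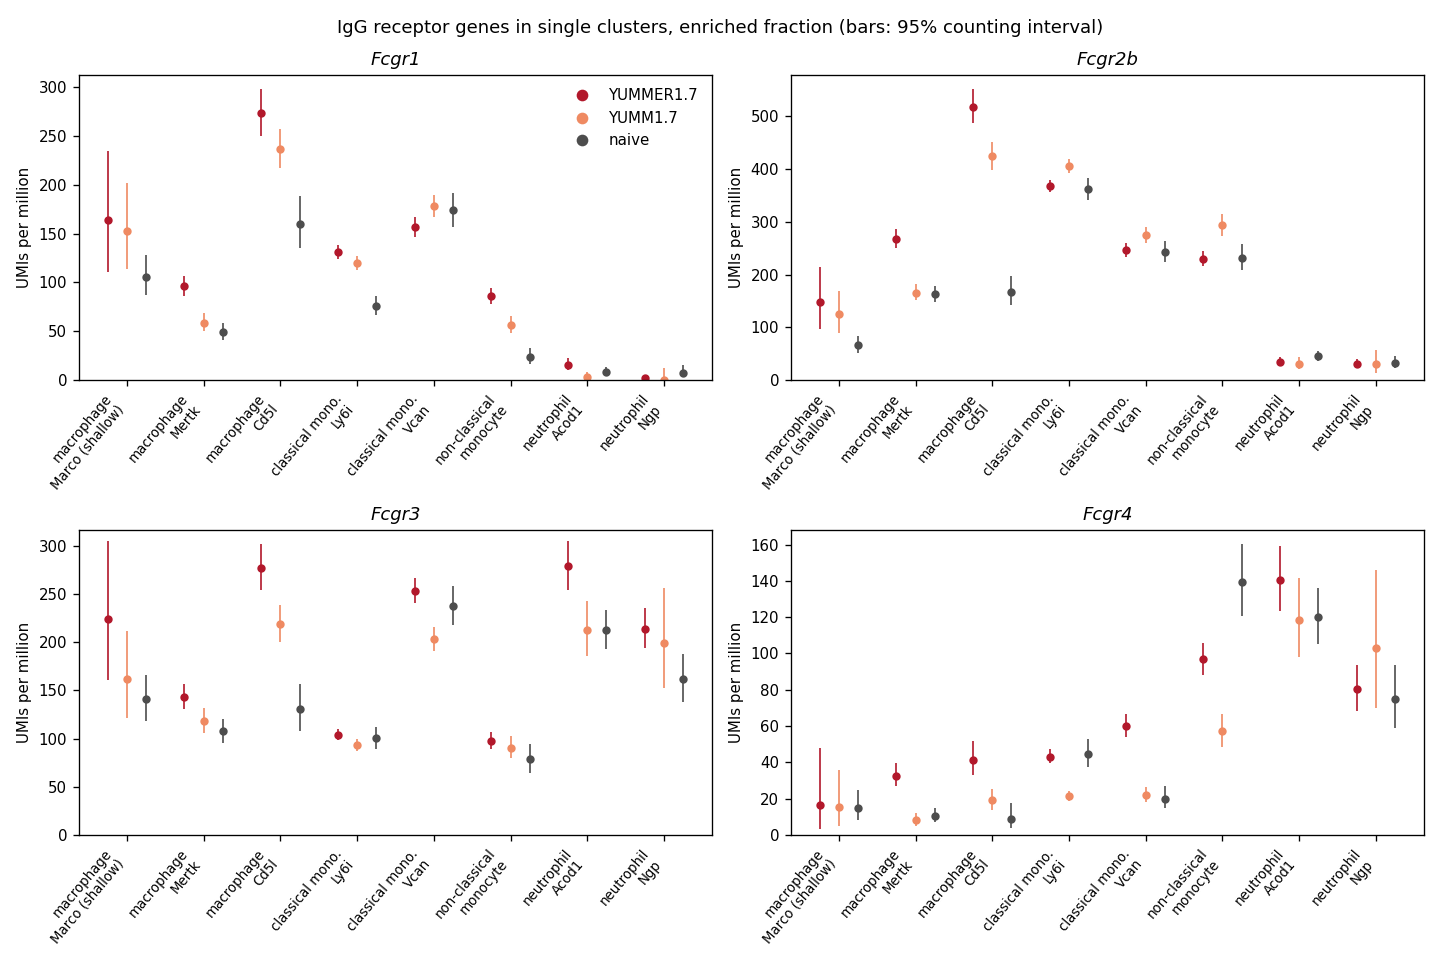
Level (CPM, linear axis from 0) of Fcgr1, Fcgr2b, Fcgr3 and Fcgr4 in 8 myeloid clusters of the enriched fraction, 1 point per library for YUMMER1.7, YUMM1.7 and naive with 95% counting intervals. In the Cd5l macrophage cluster Fcgr2b stood at 519 and 425 CPM in YUMMER1.7 and YUMM1.7 against 168 CPM in naive, whereas in the Mertk-led cluster YUMM1.7 (166 CPM) lay at the naive level (163 CPM).

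Fcgr4 separated the 2 tumour arms from each other. In macrophages it stood at 35.2 CPM in YUMMER1.7 (191 UMIs), against 13.2 CPM in YUMM1.7 (72 UMIs) and 11.1 CPM in naive (51 UMIs). YUMMER1.7 was above both others, with log2 ratios of 1.42 (1.02 to 1.83) over YUMM1.7 and 1.67 (1.22 to 2.15) over naive, while YUMM1.7 over naive was 0.25 (-0.28 to 0.80). YUMMER1.7 was also the highest arm in both deep macrophage clusters. Fcgr4 was 32.7, 7.97 and 10.3 CPM in YUMMER1.7, YUMM1.7 and naive in the Mertk-led one. It was 41.4, 19.0 and 8.96 CPM in the Cd5l one, where YUMM1.7 lay between the other arms and naive rested on 8 UMIs.

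In classical monocytes Fcgr4 was 48.7 CPM in YUMMER1.7 (830 UMIs) and 21.6 CPM in YUMM1.7 (319 UMIs), against 34.6 CPM in naive (191 UMIs). YUMMER1.7 over YUMM1.7 was 1.17 (0.99 to 1.36), and it stayed past 1.5-fold under all 7 alternative settings. The naive level lay between the tumour arms in the class, but not within its clusters. In the Vcan-led cluster Fcgr4 was 59.9 CPM in YUMMER1.7 and 22.0 CPM in YUMM1.7, against 20.1 CPM in naive. In the Ly6i-led cluster it was 43.1 CPM in YUMMER1.7 and 21.3 CPM in YUMM1.7, against 44.7 CPM in naive. YUMMER1.7 was above YUMM1.7 in both clusters, with ratios of 1.44 (1.13 to 1.76) and 1.02 (0.78 to 1.26), but naive matched YUMM1.7 in the first and YUMMER1.7 in the second. The ratio of YUMM1.7 over naive in the class, -0.68 (-0.95 to -0.42), accordingly depended on how the clusters were drawn and was -0.05 with finer clusters. Neutrophil markers, whose cells are rich in Fcgr4, summed to 578, 254 and 350 CPM in the classical monocytes of YUMMER1.7, YUMM1.7 and naive and to 444, 186 and 292 CPM in the macrophages. The sums stood in the same order as Fcgr4 in classical monocytes, whereas in macrophages YUMM1.7 had the lowest sum and naive the lowest Fcgr4, and their part in the Fcgr4 differences was not tested. Neutrophils held 207900, 100500 and 102600 CPM of these markers beside 108, 115 and 105 CPM of Fcgr4.

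In non-classical monocytes both tumour arms lay below naive. Fcgr4 was 96.7 CPM in YUMMER1.7 (468 UMIs) and 57.1 CPM in YUMM1.7 (160 UMIs), against 140 CPM in naive (199 UMIs). The log2 ratios over naive were -0.53 (-0.77 to -0.28) and -1.29 (-1.60 to -0.98), and YUMMER1.7 was again above YUMM1.7 (0.76, 0.50 to 1.03). In thinned cells 15.4%, 10.97% and 21.5% had a UMI of Fcgr4, against 0.261%, 0% and 0.13% of T cells (0 of 347 YUMM1.7 T cells allows up to 0.865%). Without thinning the shares in the non-classical monocytes were 39.2%, 21.2% and 34.6%. Neutrophil markers summed to 404, 378 and 1099 CPM in these cells, highest in naive like Fcgr4, and their part was not tested. In this class naive was thus the lowest arm for Fcgr1 and the highest for Fcgr4, while YUMMER1.7 was above YUMM1.7 for both.

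In neutrophils the 3 libraries did not separate on Fcgr4: 108 CPM in YUMMER1.7 and 115 CPM in YUMM1.7, against 105 CPM in naive, with a YUMMER1.7 over YUMM1.7 ratio of -0.08 (-0.36 to 0.20). That interval does not overlap those of macrophages, classical monocytes and non-classical monocytes given above, though the difference between classes was not tested. The neutrophil values are class sums over clusters in unequal parts. The cluster led by Acod1 and Cxcl2 held 70.85%, 90.22% and 80.87% of the cells in YUMMER1.7, YUMM1.7 and naive. The rest were in a deeper cluster led by Ngp and Camp, and the part of this mixture was not tested. cDC2 held 5.87, 2.07 and 4.22 CPM of Fcgr4 in YUMMER1.7, YUMM1.7 and naive, and YUMMER1.7 over YUMM1.7 was 1.502 (0.84 to 2.18). YUMMER1.7 was therefore above YUMM1.7 in 4 of these 5 classes.

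The windows around the transcript starts of Fcgr1 and Fcgr4 are shown because these 2 genes separated the arms in monocytes and macrophages, and because theirs were the only ones of the 11 windows of the 8 members that held either of the 2 motifs searched. The sequences are those of RefSeq on GRCm38.p6 and cover 250 bases before to 50 bases after the start, 5′ to 3′ on the strand of the gene. Capitals mark the matches.
Fcgr1, chr3:96293920-96294219, minus strand: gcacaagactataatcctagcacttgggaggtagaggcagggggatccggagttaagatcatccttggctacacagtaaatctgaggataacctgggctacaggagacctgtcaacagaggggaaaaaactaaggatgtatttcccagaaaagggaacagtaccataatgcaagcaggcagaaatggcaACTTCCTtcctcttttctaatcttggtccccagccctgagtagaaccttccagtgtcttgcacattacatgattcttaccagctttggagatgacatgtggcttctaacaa
Fcgr4, chr1:171018676-171018975, plus strand: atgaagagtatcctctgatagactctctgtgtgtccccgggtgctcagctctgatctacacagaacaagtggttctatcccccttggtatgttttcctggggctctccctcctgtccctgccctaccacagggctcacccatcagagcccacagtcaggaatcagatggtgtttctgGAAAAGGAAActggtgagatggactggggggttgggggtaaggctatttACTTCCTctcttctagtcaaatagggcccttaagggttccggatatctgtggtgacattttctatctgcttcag
The motifs were the core of the ISRE bound by IRF factors (GAAA, any 2 bases, GAAA) and the core bound by PU.1 and other ETS factors (AGGAAGT), each searched on both strands. The Fcgr4 window held an ISRE core match starting 73 bases before the start, and the Fcgr1 window held none. Both windows held the ETS core on the opposite strand, read here as ACTTCCT, 61 bases before the start in Fcgr1 and 24 bases before it in Fcgr4. Of 32851 windows of the same length in the same table, 3.44% held the ISRE core letters and 9.35% the ETS core letters. The matches are letters in a window and no binding was measured.

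Fcgr3 differed by less than 1.5-fold between arms in neutrophils and both monocyte classes. In neutrophils, its highest class, it was 244 CPM in YUMMER1.7 and 210 CPM in YUMM1.7, against 195 CPM in naive, and YUMMER1.7 was above both naive (0.32, 0.17 to 0.47) and YUMM1.7 (0.22, 0.02 to 0.42) by less than 1.5-fold. In macrophages it was 193 CPM in YUMMER1.7 and 164 CPM in YUMM1.7, against 119 CPM in naive, with log2 ratios of 0.69 (0.54 to 0.84) and 0.46 (0.31 to 0.62). The 0.69 was past 1.5-fold, but 4 of 7 alternatives took it below, down to 0.35 in thinned cells. In classical monocytes Fcgr3 was 154, 130 and 156 CPM in YUMMER1.7, YUMM1.7 and naive, and in non-classical monocytes 97.9, 90.6 and 78.6 CPM. The Vcan-led classical monocytes held more Fcgr3 than the Ly6i-led ones in every arm, 253, 203 and 238 CPM against 104, 93.1 and 100.3 CPM in YUMMER1.7, YUMM1.7 and naive.

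In NK cells Fcgr3, the receptor known as CD16 that serves antibody-dependent killing, was 46.9 CPM in YUMMER1.7 (64 UMIs, 222 cells) and 37.0 CPM in YUMM1.7 (74 UMIs, 380 cells), against 32.6 CPM in naive (103 UMIs, 559 cells). The order was the same as in neutrophils and macrophages, but only YUMMER1.7 over naive excluded 0 (0.53, 0.05 to 0.99), and it was under 1.5-fold. The depleted fraction gave NK cells with 54.9, 56.4 and 34.7 CPM in YUMMER1.7, YUMM1.7 and naive, from 25, 90 and 149 cells. There YUMM1.7 over naive was 0.70 (0.02 to 1.40), past 1.5-fold beside 5.47% of all measured genes in that direction and 14.7% in the other, and it was -0.21 in thinned cells. In thinned NK cells of the enriched fraction 8.17%, 7.12% and 7.41% had a UMI of Fcgr3 in YUMMER1.7, YUMM1.7 and naive, against 0.261%, 0% and 0.712% of T cells, and without thinning 21.6%, 17.1% and 15.03%. Median depths were 5797, 5212 and 5329 UMIs in NK cells. The shares in NK cells were above the T cell shares in every arm and did not separate the arms.

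Fcer1g, the signalling partner of these receptors, was high in every class that carried an activating receptor. It stood at 2725, 2374 and 2516 CPM in non-classical monocytes, 2443, 2260 and 2141 CPM in classical monocytes and 2020, 1842 and 1462 CPM in macrophages of YUMMER1.7, YUMM1.7 and naive. Neutrophils held 2142, 1680 and 1566 CPM and NK cells 1659, 1553 and 1398 CPM in the same order. YUMMER1.7 was highest in all 5 classes, but no ratio passed 1.5-fold. The widest were macrophages, at 0.47 (0.42 to 0.51) for YUMMER1.7 and 0.33 (0.29 to 0.38) for YUMM1.7 over naive, and YUMMER1.7 neutrophils, at 0.45 (0.40 to 0.50). Median-of-ratios scaling moved the neutrophil value to 0.64, which is past 1.5-fold. The YUMMER1.7 neutrophils held 186 cells of a second cluster led by Ngp and Camp, against 40 in YUMM1.7 and 149 in naive. In the larger cluster led by Acod1 and Cxcl2, Fcer1g was 2515 CPM in YUMMER1.7 and 1653 CPM in YUMM1.7, against 1672 CPM in naive, so that YUMMER1.7 alone stood apart there (0.59 over naive, 0.52 to 0.65). In the Ngp-led cluster it was 1817 and 1771 CPM in YUMMER1.7 and YUMM1.7 against 1359 CPM in naive.

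Dendritic cells differed among themselves in Fcer1g. cDC2 held 1071, 982 and 1007 CPM in YUMMER1.7, YUMM1.7 and naive, CCR7+ migratory dendritic cells 330, 312 and 366 CPM, and conventional type 1 dendritic cells (cDC1) 88.4, 103 and 91.1 CPM. The plasmacytoid dendritic cells of the depleted fraction held 1049, 1051 and 933 CPM. The ranges of these 3 enriched classes did not overlap. The low end needs the free RNA reference: T cells of the enriched fraction held 44.97, 67.26 and 64.98 CPM and B cells 45.01, 32.51 and 55.36 CPM. In the depleted fraction, B cells held 3.26, 5.20 and 3.51 CPM. All kept cells together held 1364, 1140 and 762 CPM of Fcer1g in the enriched fraction and 94.9, 105 and 77.1 CPM in the depleted one. The T cells of the enriched fraction did not follow that order, and Fcer1g made by T cells themselves was not tested. Among thinned T cells of the enriched fraction 7.57%, 10.9% and 10.3% had a UMI of Fcer1g, against 96.2%, 91.7% and 90.9% of NK cells, and the cDC1 level was little above that reference.

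The inhibitory receptor Fcgr2b was the IgG receptor found in both myeloid and B cells. It was highest in classical monocytes, macrophages and non-classical monocytes, whose ranges overlapped, and lower in B cells and cDC2, which overlapped too. In macrophages it had the widest ratio over naive that both tumour arms shared. Fcgr2b was 352 CPM in YUMMER1.7 (1911 UMIs) and 276 CPM in YUMM1.7 (1505 UMIs), against 143 CPM in naive (658 UMIs). The 3 libraries were separated, with log2 ratios over naive of 1.30 (1.17 to 1.43) and 0.95 (0.82 to 1.08), and YUMMER1.7 over YUMM1.7 of 0.35 (0.26 to 0.45). Without the shallow cluster, which had 148, 125 and 66.1 CPM, the levels were 360, 285 and 164 CPM and the ratios over naive 1.13 and 0.80. Thinning to 2000 UMIs gave 1.03 and 0.56, and the stricter cell filter 0.99 and 0.53, so that the YUMM1.7 ratio fell under 1.5-fold in both. Thinning also left out cells with fewer than 2000 UMIs, and with them much of the shallow cluster.

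Fcgr2b had wider ratios over naive in 1 of the 2 deep macrophage clusters, as the plot of clusters shows. In the Cd5l cluster it was 519 CPM in YUMMER1.7 (989 UMIs) and 425 CPM in YUMM1.7 (1006 UMIs), against 168 CPM in naive (150 UMIs), log2 ratios of 1.63 (1.38 to 1.88) and 1.34 (1.09 to 1.59). In the Mertk-led cluster it was 269 CPM in YUMMER1.7 and 166 CPM in YUMM1.7, against 163 CPM in naive. YUMM1.7 thus lay above naive and below YUMMER1.7 in the first cluster. In the second it stood with naive, where its ratio over naive was 0.03 (-0.17 to 0.22). Macrophage markers summed to 17940, 16760 and 13360 CPM in the Cd5l cluster and to 7924, 9529 and 7794 CPM in the Mertk-led one, and their part in these ratios was not tested. Classical monocyte markers summed to 295, 181 and 348 CPM in the Cd5l cluster, highest in naive.

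In thinned macrophages 36.4%, 26.5% and 19.9% of YUMMER1.7, YUMM1.7 and naive cells had a UMI of Fcgr2b, against 0.522%, 0.865% and 0.518% of T cells. Without thinning the shares were 62.1%, 51.6% and 21.1%, at median depths of 17343, 11760 and 1418 UMIs. Thinned shares left out cells with fewer than 2000 UMIs, a limit above the median depth of naive macrophages. The thinned and unthinned shares therefore cover different cells. In YUMMER1.7, 53.3% of the thinned macrophages with Fcgr1 also had Fcgr2b, against 31.6% of those without Fcgr1. In YUMM1.7 these shares were 29.9% and 25.4%, and in naive 14.9% and 20.7%, from 7 cells with both genes. Thinned classical monocytes with and without Fcgr1 had Fcgr2b in 46.8% and 41.9% of cells in YUMMER1.7, 48.0% and 47.0% in YUMM1.7 and 43.6% and 42.7% in naive. Cells with UMIs of both genes were present in both classes in every arm.

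In the monocyte classes Fcgr2b moved little. It was 326, 358 and 307 CPM in classical monocytes and 230, 294 and 232 CPM in non-classical monocytes of YUMMER1.7, YUMM1.7 and naive. YUMM1.7 was highest in both, by 0.22 (0.14 to 0.30) and 0.34 (0.15 to 0.53) over naive. Neutrophils held 32.7, 30.4 and 41.4 CPM and did not separate.

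In dendritic cells Fcgr2b was lower in the tumour arms in class sums. cDC2 held 70.1 CPM in YUMMER1.7 and 78.1 CPM in YUMM1.7, against 116 CPM in naive, log2 ratios of -0.72 (-0.86 to -0.59) and -0.57 (-0.68 to -0.45). The 2 cDC2 clusters were unequally filled: the cluster led by Ctnnd2 and Klri1 held 83.3%, 79.0% and 56.6% of cDC2 in YUMMER1.7, YUMM1.7 and naive, and the cluster led by Mmp12 and Mgl2 the rest. Within the first, Fcgr2b was 55.5, 49.3 and 58.1 CPM, and within the second 144, 181 and 178 CPM, so that the ratios over naive within a cluster lay between -0.30 and 0.03, closer to 0 than in the sum. The class ratio was -0.21 with finer clusters and -0.28 with the receptor genes kept for clustering. Fcgr3 in cDC2 behaved alike, at 16.8 and 14.1 CPM in YUMMER1.7 and YUMM1.7 against 28.3 CPM in naive in the class sum, but 6.37, 3.90 and 5.78 CPM in the first cluster and 69.8, 50.4 and 52.6 CPM in the second. CCR7+ migratory dendritic cells held 21.7 and 36.2 CPM of Fcgr2b in YUMMER1.7 and YUMM1.7 against 38.2 CPM in naive. Their cluster led by St18 and Ccl17 held 55.5, 72.6 and 51.6 CPM and the cluster led by Il12b and Tnfrsf4 10.98, 15.33 and 7.82 CPM, and the first had 204, 397 and 1368 cells and the second 516, 430 and 355 cells in YUMMER1.7, YUMM1.7 and naive. Within these 2 clusters neither tumour arm was below naive, unlike in the sum of the class. A further cluster, led by Dpp10 and Dkk2, went the other way in YUMM1.7. It held 25 UMIs of Fcgr2b in 169 YUMM1.7 cells, against 41 UMIs in 128 naive cells, at median depths of 11642 and 10586 UMIs. cDC1 held 46.6, 41.7 and 58.2 CPM of Fcgr2b.

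**Figure D3:**
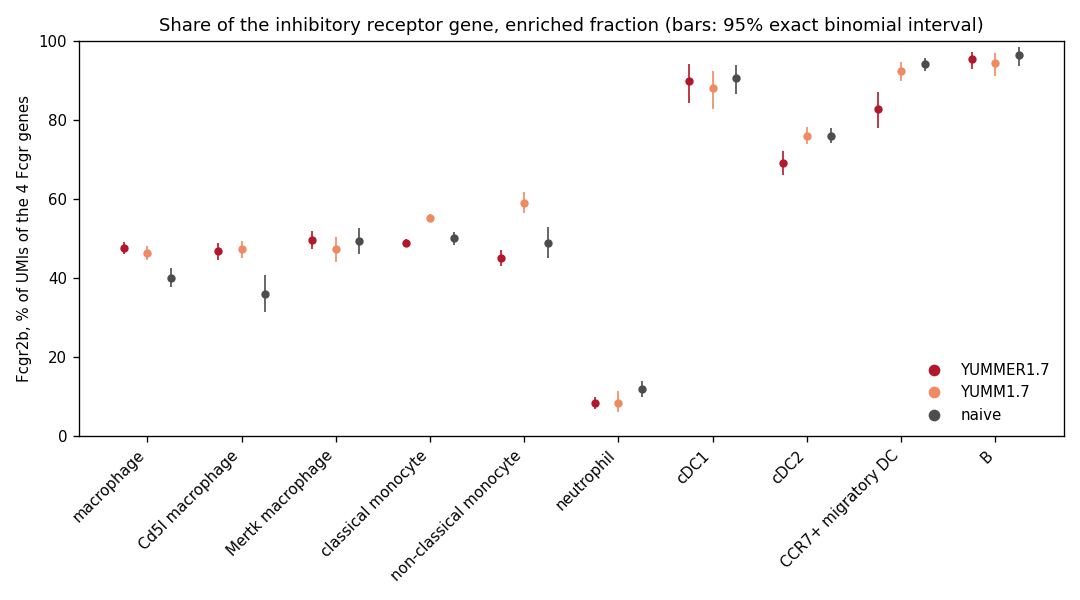
Fcgr2b as a percentage of the UMIs of Fcgr1, Fcgr2b, Fcgr3 and Fcgr4 in myeloid classes and B cells of the enriched fraction, 1 point per library for YUMMER1.7, YUMM1.7 and naive with exact binomial 95% intervals. Neutrophils lay between 8.31% and 11.8% and B cells between 94.4% and 96.5%. The monocyte and macrophage classes lay between 40.1% and 59.0%, and the naive point of the Cd5l macrophage cluster lay lower, at 35.9%.

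The inhibitory gene took a share of the UMIs of the 4 IgG receptor genes that differed widely between classes. The share was 8.31%, 8.51% and 11.8% in neutrophils of YUMMER1.7, YUMM1.7 and naive, and 95.4%, 94.4% and 96.5% in B cells. It was 89.9%, 88.1% and 90.5% in cDC1, and 69.0%, 76.0% and 76.0% in cDC2. Between arms the share also moved. In non-classical monocytes it was 45.1% (43.1 to 47.1) in YUMMER1.7, 59.0% (56.4 to 61.6) in YUMM1.7 and 49.0% (45.1 to 52.8) in naive. YUMM1.7 was the highest arm there and in classical monocytes, with 48.81%, 55.21% and 50.04% in YUMMER1.7, YUMM1.7 and naive. In macrophages the share was 47.5% and 46.3% in YUMMER1.7 and YUMM1.7 against 40.1% in naive, and 45.1% in naive without the shallow cluster. The Cd5l cluster kept a gap, 46.7% and 47.2% in YUMMER1.7 and YUMM1.7 against 35.9% (31.3 to 40.7) in naive, and the Mertk-led one did not, at 49.7%, 47.3% and 49.4%. In CCR7+ migratory dendritic cells the share was 82.8% (78.0 to 86.9) in YUMMER1.7 and 92.4% (89.7 to 94.5) in YUMM1.7, against 94.1% (92.4 to 95.6) in naive. Their St18-led cluster held 95.4%, 96.1% and 95.5% and their Il12b-led cluster 66.7%, 83.0% and 85.3% in the same order. In the small cluster led by Cyp7b1 and Apod it was 74.0% (59.7 to 85.4) in YUMM1.7, against 97.5% (94.3 to 99.2) in naive. Shares compare UMIs of genes that are captured unequally and are read here only across classes and libraries.

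**Figure D4:**
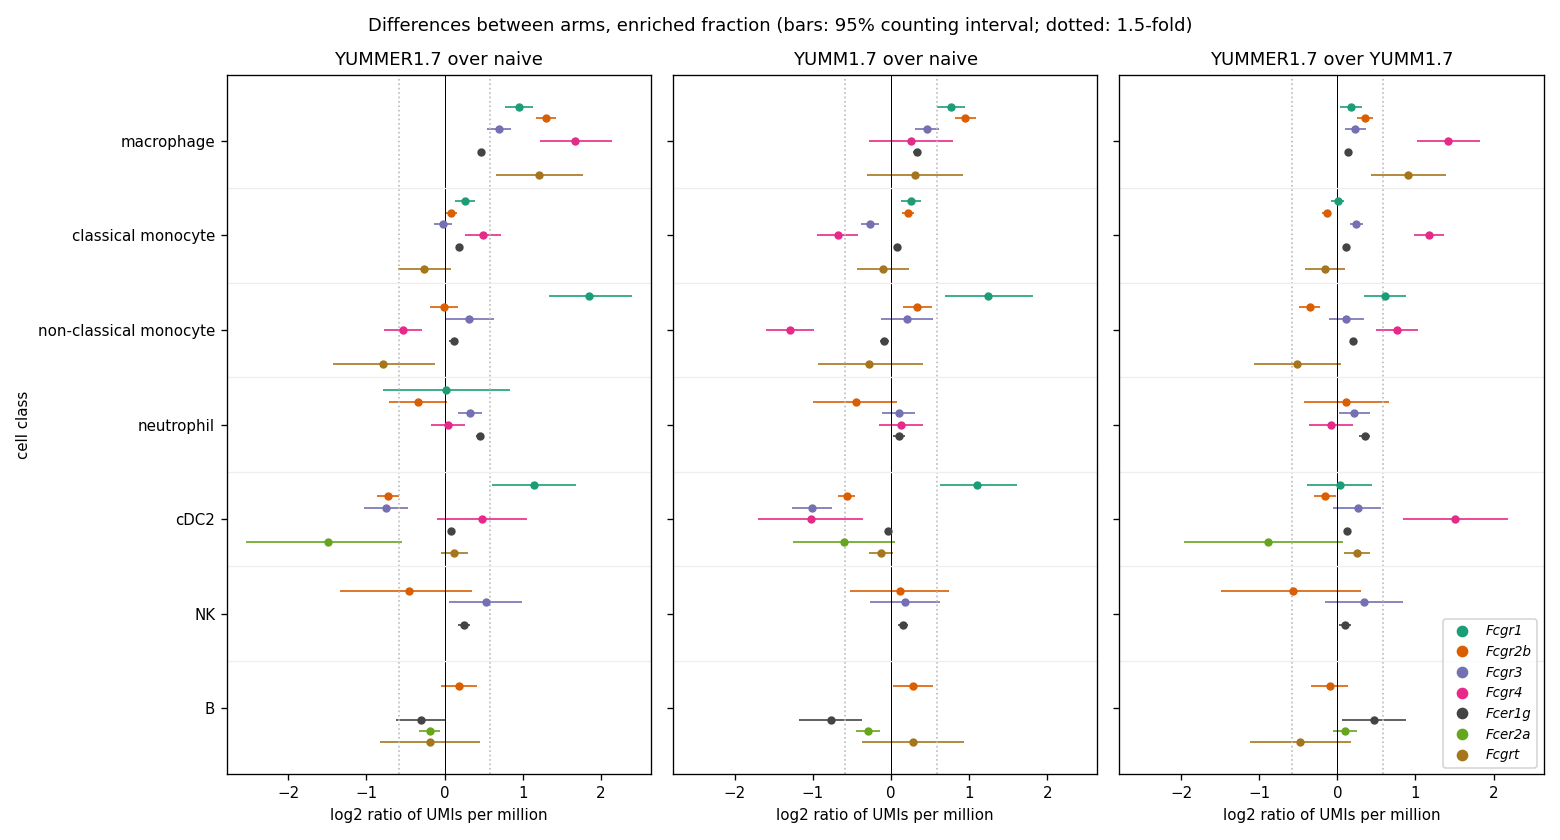
Log2 ratios of the members in 7 classes of the enriched fraction for YUMMER1.7 over naive, YUMM1.7 over naive and YUMMER1.7 over YUMM1.7, with exact 95% counting intervals; dotted lines mark 1.5-fold. In macrophages 5 members lay above the upper line for YUMMER1.7 over naive, whereas no member crossed a line in neutrophils or NK cells.

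The members measured with at least 50 UMIs were counted past 1.5-fold class by class, beside the share of all measured genes past it in the same comparison. In macrophages, for YUMMER1.7 over naive 5 of 6 members were past it upward (Fcgr1, Fcgr2b, Fcgr3, Fcgr4 and Fcgrt) and none downward, beside 3.92% of all 9529 measured genes upward and 7.28% downward, and the median log2 ratio was 1.08 over the members and -0.07 over all genes. For YUMM1.7 over naive 2 of 6 were past it upward (Fcgr1 and Fcgr2b) beside 3.39% of genes upward and 6.14% downward, and the median was 0.40 against -0.06 over all genes. For YUMMER1.7 over YUMM1.7 2 of 6 were past it upward (Fcgr4 and Fcgrt) beside 3.53% and 3.86%. In non-classical monocytes Fcgr1 was past 1.5-fold upward and Fcgrt downward for YUMMER1.7 over naive (9.32% and 10.5% of genes), and Fcgr1 upward and Fcgr4 downward for YUMM1.7 over naive (6.16% and 6.68%). For YUMMER1.7 over YUMM1.7 in the same class, Fcgr1 and Fcgr4 were past it upward (3.44% up, 5.21% down). In classical monocytes none of 6 was past it for YUMMER1.7 over naive (6.41% up and 7.83% down), Fcgr4 was downward for YUMM1.7 over naive (3.78% up, 4.94% down) and upward for YUMMER1.7 over YUMM1.7 (3.07% up, 3.41% down).

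Neutrophils and NK cells of the enriched fraction had no member past 1.5-fold. For neutrophils this held in all 3 contrasts beside 9.27%, 5.81% and 14.8% of genes upward and 18.4%, 14.1% and 17.1% downward, for YUMMER1.7 over naive, YUMM1.7 over naive and YUMMER1.7 over YUMM1.7. For these NK cells none of 3 members was past it beside 3.85%, 3.45% and 2.34% upward and 8.28%, 4.23% and 4.62% downward. In cDC2, Fcgr1 was upward and Fcgr2b, Fcgr3 and Fcer2a downward of 7 measured for YUMMER1.7 over naive, beside 11.1% and 10.1% of genes. For YUMM1.7 over naive the cDC2 counts were Fcgr1 upward and Fcgr3, Fcgr4 and Fcer2a downward beside 6.7% and 7.29%. For YUMMER1.7 over YUMM1.7 they were Fcgr4 upward and Fcer2a downward beside 3.51% and 2.92%. In CCR7+ migratory dendritic cells Fcgr3 was upward and Fcgr2b downward for YUMMER1.7 over naive beside 8.33% and 9.88%, and the Fcgr3 ratio was -0.55 in thinned cells.

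The IgE receptors were each tied to a single lineage. Fcer1a was found in the class of mast cells and basophils, and in no other class of the depleted fraction with at least 50 cells did it exceed 0.914 CPM. In that class it was 1128 CPM in YUMMER1.7 (580 UMIs, 97 cells) and 462 CPM in YUMM1.7 (254 UMIs, 112 cells), against 225 CPM in naive (37 UMIs, 25 cells). The libraries were separated by counting error, with log2 ratios of 2.32 (1.84 to 2.85) and 1.04 (0.54 to 1.58) over naive and 1.29 (1.07 to 1.51) for YUMMER1.7 over YUMM1.7. Giving each cell equal weight brought the 2 ratios over naive to 1.45 and 0.50, and thinning to 1.27 and 0.01, so that YUMM1.7 over naive was not past 1.5-fold in either. Fcer1g was 2851 and 2042 CPM in YUMMER1.7 and YUMM1.7 against 1102 CPM in naive, and Fcgr3 152 and 120 CPM against 97.4 CPM. Fcgr2b lay between 103.5 and 140 CPM in this class, above the 85.67 to 94.22 CPM of B cells in the same fraction. Of 4 members measured in this class, Fcgr3, Fcer1g and Fcer1a were past 1.5-fold upward for YUMMER1.7 over naive, beside 22.5% of genes upward and 19.8% downward, so that shifts of this size were common there. For YUMM1.7 over naive they were Fcer1g and Fcer1a (16.6% up, 16% down), and for YUMMER1.7 over YUMM1.7 Fcer1a alone (9.83% up, 10.2% down).

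Mast cells and basophils were told apart cell by cell, by at least 10 UMIs of mast cell markers or at least 3 UMIs of basophil markers and the larger of both sums. The 14, 12 and 8 mast-marker cells of YUMMER1.7, YUMM1.7 and naive in the depleted fraction had medians of 25, 6 and 1 UMIs of Fcer1a per cell, and 12, 8 and 5 of them had any. Per 10000 UMIs of a cell, the medians were 33.1, 10.3 and 2.06. The mast cell markers moved in the same order, with medians of 1204, 616 and 190 UMIs per 10000, and their part in the Fcer1a difference was not tested. The enriched fraction gave 13, 6 and 16 mast-marker cells with 2416 and 2260 CPM of Fcer1a in YUMMER1.7 and YUMM1.7 against 553 CPM in naive. Basophil-marker cells carried less Fcer1a and a narrower range: 406 and 302 CPM in YUMMER1.7 and YUMM1.7 (74 cells each) against 182 CPM in naive (13 cells) in the depleted fraction. In both fractions the mast-marker cells of the tumour arms were above those of naive, but single cells carried much of each sum, up to 85 UMIs in 1 YUMMER1.7 cell.

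**Figure D5:**
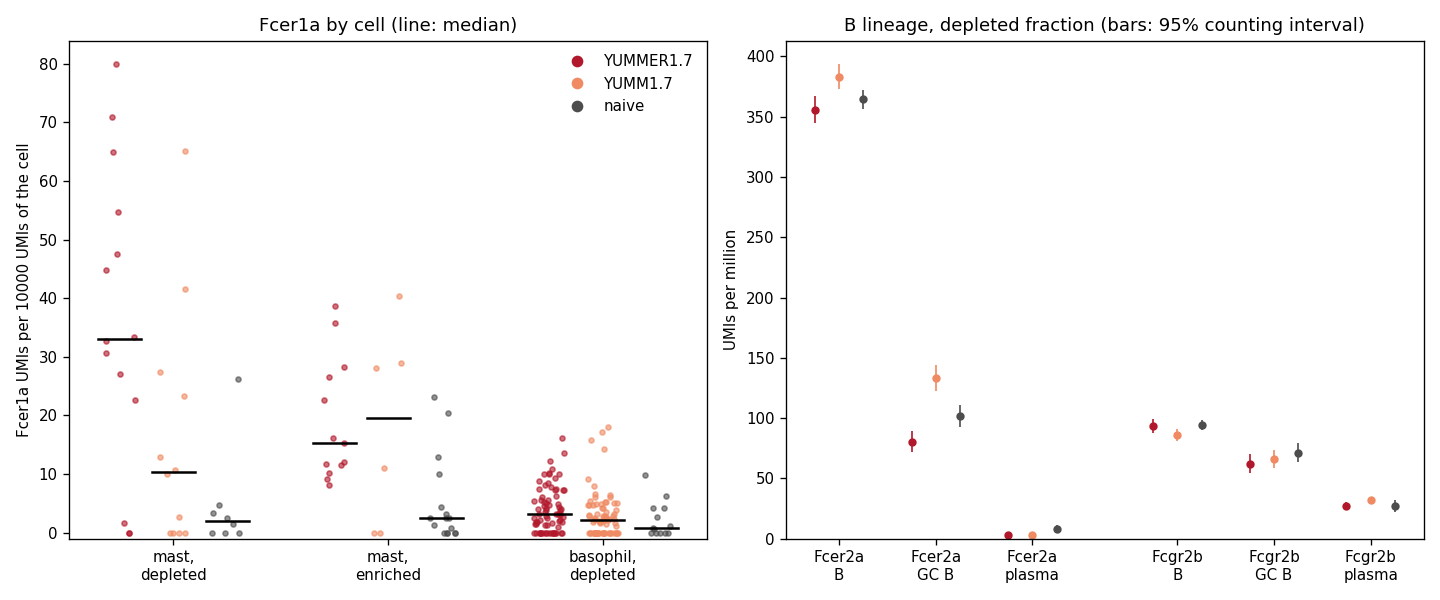
Left, Fcer1a UMIs per 10000 UMIs in single mast-marker and basophil-marker cells of YUMMER1.7, YUMM1.7 and naive, with a line at the median. Right, Fcer2a and Fcgr2b (CPM) in B cells, germinal-centre B cells and plasma cells of the depleted fraction with 95% counting intervals. Fcer1a medians of the depleted mast-marker cells were 33.1, 10.3 and 2.06, and Fcer2a lay between 356 and 383 CPM in B cells of all 3 arms.

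Fcer2a marked B cells. In the 2114, 3617 and 5810 B cells of the depleted fraction it was 356 CPM in YUMMER1.7 and 383 CPM in YUMM1.7, against 364 CPM in naive, with log2 ratios of -0.04 (-0.09 to 0.02) and 0.07 (0.02 to 0.12). In thinned B cells 48.0%, 49.5% and 48.8% had a UMI of it, against 0.521%, 1.44% and 1.42% of T cells, and 70.3%, 66.4% and 65.4% without thinning. The 3 arms were close to each other on both measures. These and all other values of depleted B cells leave out unnamed clusters. One led by Nr4a1 and Cd86 had 274, 572 and 1839 cells, and one led by Ahr and Sox5 had 179, 274 and 311 cells. Fcgr2b took between 98.11% and 100% of the IgG receptor UMIs in these clusters, against 99.6% to 99.77% in depleted B cells. Whether they were B cells was not tested. In the 620, 396 and 706 B cells of the enriched fraction Fcer2a was 271 CPM in YUMMER1.7 and 253 CPM in YUMM1.7, against 309 CPM in naive, and both ratios (-0.19 and -0.29) were under 1.5-fold. The YUMMER1.7 value moved to -0.06 under median-of-ratios scaling.

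Fcer2a was lower in germinal-centre B cells and plasma cells than in the other B cells. Germinal-centre B cells of the depleted fraction held 80.1 CPM in YUMMER1.7 and 133 CPM in YUMM1.7, against 101 CPM in naive. YUMMER1.7 over YUMM1.7 was -0.73 (-0.93 to -0.53), past 1.5-fold beside 3.03% of genes downward and 3.23% upward, but -0.05 in thinned cells. Plasma cells held 3.19, 2.88 and 7.67 CPM in YUMMER1.7, YUMM1.7 and naive, no more than the level of T cells (3.25 to 7.51 CPM over the 3 libraries) in the tumour arms. The order B cells, germinal-centre B cells, plasma cells held in every arm with no overlap of ranges.

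Fcgr2b, the inhibitory IgG receptor of B cells, also differed little between arms. It was 93.3, 85.7 and 94.2 CPM in depleted B cells of YUMMER1.7, YUMM1.7 and naive, 62.1, 65.7 and 71.0 CPM in germinal-centre B cells, and 27.1, 32.0 and 26.8 CPM in plasma cells. In enriched B cells it was 103, 111 and 90.8 CPM. Of 4 members measured in depleted B cells none was past 1.5-fold for YUMMER1.7 over naive (3.88% of genes up, 3.76% down) or YUMM1.7 over naive (3.57% up, 2.02% down). Fcer1g was downward for YUMMER1.7 over YUMM1.7 (2.71% up, 2.42% down). In enriched B cells none of 4 was past it for YUMMER1.7 over naive (3.69% up, 7.88% down), and Fcer1g was downward for YUMM1.7 over naive (4.29% up, 6.89% down). None was past it for YUMMER1.7 over YUMM1.7 (2.93% up, 3.3% down). Fcer1g in B cells was no higher than in the T cells of the same fraction beyond counting error. Whether it came from free RNA was not tested. Thinned depleted B cells with and without Fcgr2b had Fcer2a in 45.2% and 48.6% of cells in YUMMER1.7, 45.6% and 50.2% in YUMM1.7 and 48.2% and 48.9% in naive.

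Fcgrt was higher in cDC1 and cDC2 than in monocytes, macrophages and migratory dendritic cells. cDC1 held 87.7, 72.6 and 73.7 CPM and cDC2 57.6, 48.3 and 52.8 CPM in YUMMER1.7, YUMM1.7 and naive, and the ranges of these classes did not overlap. Classical monocytes held 15.9, 17.7 and 19.0 CPM and non-classical monocytes 13.02, 18.55 and 22.45 CPM, and CCR7+ migratory dendritic cells 11.8, 12.9 and 13.5 CPM. A cluster of 8, 32 and 87 cells led by Cyp7b1, Apod and Cd200r1, which also carried plasmacytoid markers such as Tcf4 and Ccr9, held 185, 345 and 200 CPM, above cDC1 in every arm. In macrophages Fcgrt was 19.6 CPM in YUMMER1.7 (106 UMIs) and 10.4 CPM in YUMM1.7 (57 UMIs), against 8.47 CPM in naive (39 UMIs). YUMMER1.7 stood above both, with log2 ratios of 1.21 (0.67 to 1.78) over naive and 0.90 (0.43 to 1.40) over YUMM1.7, and both stayed past 1.5-fold under all 7 alternatives. In non-classical monocytes the order was reversed, with YUMMER1.7 over naive at -0.79 (-1.42 to -0.12). In the depleted fraction fibroblastic cells held 117.5 and 114 CPM in YUMMER1.7 and YUMM1.7 (415 and 265 cells), lymphatic endothelium 75.4 and 74.98 CPM, and blood endothelium 44.2 and 34.8 CPM, and naive gave at most 21 cells of each. Beta-2 microglobulin (B2m), the partner of Fcgrt, was 3293, 3314 and 3157 CPM in macrophages.

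Signalling genes downstream of the receptors were taken as lists of other immunoglobulin receptors (12 genes), ITAM adaptors (3), kinases and adaptors of activating receptors (15) and phosphatases of inhibitory receptors (4). In macrophages, for YUMMER1.7 over naive, 2 of 14 measured kinases and adaptors were past 1.5-fold upward, beside 3.92% of all genes upward and 7.28% downward in that contrast, and both were of the Src family: Fgr (286 against 175 CPM, 0.71, 0.58 to 0.83) and Fyn (138 against 84.5 CPM, 0.71, 0.53 to 0.89). The median of that list was 0.14. Of 3 ITAM adaptors Cd247 was downward (3.504 against 8.25 CPM) and Tyrobp, the partner of other activating receptors, was 1398 CPM in YUMMER1.7 and 1132 CPM in naive (0.31). Of 2 measured other receptors Trim21, an antibody receptor of the cytosol, was downward (6.64 against 13.5 CPM), and none of 4 phosphatases was past it. For YUMM1.7 over naive no gene of these lists was past 1.5-fold in macrophages.

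In neutrophils 3 of 12 kinases and adaptors were past 1.5-fold downward for YUMMER1.7 over naive, beside 18.4% of all genes, so that this count was near the background. They included Lyn (1333 against 2057 CPM, -0.63, -0.68 to -0.57) and Gab2 (555 against 904 CPM, -0.70, -0.79 to -0.62), and the list median was -0.28 beside -0.13 over all genes. Lyn is the Src kinase that phosphorylates Fc receptor chains and Gab2 an adaptor of the same pathway. For YUMM1.7 over naive 1 of 12, Fgr, was upward (571 against 378 CPM) beside 5.81% of genes. In non-classical monocytes Fyn (211 against 363 CPM) and Gab2 (543 against 869 CPM) were downward of 13 for YUMM1.7 over naive beside 6.68% of genes, and none of 13 was past it for YUMMER1.7. Of the other receptors Fcrl1 and Fcrl5 were downward and Trim21 upward of 3 for YUMMER1.7 (10.5% of genes down, 9.32% up), and Fcrl5 downward of 2 for YUMM1.7. Fcrl5, an Fc receptor-like gene, held 5.37 CPM in YUMMER1.7 and 6.42 CPM in YUMM1.7, against 26.7 CPM in naive. In classical monocytes none of 13 kinases and adaptors was past it in either tumour arm over naive. In NK cells 1 of 12 was, Fgr in YUMM1.7 (32.5 against 19.6 CPM), beside 3.45% of genes upward. Inpp5d, the SHIP1 phosphatase recruited by Fcgr2b, was downward in B cells for YUMMER1.7 over naive in both fractions, 661 against 1021 CPM in the enriched one and 467 against 722 CPM in the depleted one (-0.63 in each), beside 7.88% and 3.76% of genes downward.

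The genes whose levels were most like those of each member were sought over 35 sums of 1 class and 1 library in the enriched fraction, among 11364 genes. Points of 1 library share its depth and points of 1 class its cells, so the correlations are descriptions. Fcgr3 was most like Itgam (Pearson's r = 0.95), Fcgr4 most like Vnn3 (0.95), Fcgr1 most like Msr1 (0.93) and Fcgr2b most like Nlrc4 (0.88). Fcer1g was most like Tyrobp (0.96), Fcer1a most like Cpa3 (0.95), Fcer2a most like Cr2 (0.96) and Fcgrt most like Tbc1d9 (0.87). Among the members themselves the closest pair was Fcgr3 and Fcer1g (0.865), before Fcgr3 and Fcgr4 (0.796) and Fcgr1 and Fcgr3 (0.784). Fcgr2b, Fcgr3, Fcgr4, Fcer1g and Fcer1a lie on chromosome 1, while Fcgr1 lies on chromosome 3, Fcgrt on 7 and Fcer2a on 8.

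The genes were counted apart by their 3′ ends, and the near copies among them overlap little there. In the GENCODE vM21 annotation of GRCm38, Fcgr2b (chr1:170958617-170976547, minus strand), Fcgr4 (chr1:171018920-171029761, plus strand), Fcgr3 (chr1:171051174-171064935, minus strand) and Fcer1g (chr1:171229572-171234365, minus strand) follow each other. Of the 31-base words in the last 500 bases of the transcripts, 3.06% of those of Fcgr2b also occurred in Fcgr3 and 0.52% of those of Fcgr3 in Fcgr2b. Fcgr1, Fcer1g and Fcer1a shared none with any other gene. Fcgr2b and Fcgrt each overlap an annotated antisense gene.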

How the data were processed

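The deposited matrices hold counts of unique molecular identifiers per gene and cell barcode, made with Cell Ranger: 8.0.1 per the file headers of the enriched fraction, 7.0.0 per those of the depleted fraction, and 8.0.1 with mm10 per the submitters' processing notes. The fractions were therefore clustered and compared between arms separately, and no ratio was formed between their levels. The depleted fraction is labelled as de-enriched for CD45, while its protocol speaks of a positive selection of stroma. Its make-up differed between arms. Cells named B and T numbered 2114 and 198 of 6582 in YUMMER1.7, 3617 and 1035 of 8255 in YUMM1.7, and 5810 and 2779 of 12339 in naive. An unnamed shallow cluster led by Cxcl13 and Ccl20 held 1614 YUMMER1.7 cells, with a median of 599 UMIs, against 43 in YUMM1.7 and 2 in naive.

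Barcodes with at least 500 UMIs, 300 genes and at most 10% mitochondrial UMIs were kept, and the top 5% by a simulated-doublet score were removed. Per fraction, 2000 variable genes, 30 principal components, 15 neighbours and Leiden resolution 1 gave clusters. All Fc receptor genes were left out of that step, as were antigen receptor genes, sex-linked genes and those of haemoglobin, ribosomes and mitochondria. Clusters were named from 23 marker lists. UMIs were summed per class and library. Levels carry exact Poisson intervals, ratios exact conditional binomial intervals and shares Clopper-Pearson intervals, which all cover counting error alone. Where a share was 0, the limit is 3 cells of the total. Thinned shares and ratios used only cells with at least 2000 UMIs, each thinned to 2000 UMIs, and left out shallower cells. Shares without thinning used all cells of the class. Ratios and intervals were run on simulated Poisson counts, the model that the intervals assume. Those counts hold no spread between cells or mice, so the run cannot show how the intervals fare with such spread.

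All 8 members were counted in every class, and not every level is given here. Genes of the pathway lists were named by the 2 per list and contrast with the ratio farthest from 0 at the near bound of its interval, and the genes most like a member by the highest Pearson's r of log2(CPM + 1). Members and lists were chosen with earlier results of these data known. The UMI minimums for mast-marker and basophil-marker cells, the last parts of the cluster naming rule and the omission of the shallow macrophage cluster were set after the data had been seen.

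Python 3.11.15, numpy 2.4.6, scipy 1.17.1, pandas 2.3.3, scikit-learn 1.9.0, leidenalg 0.10.2, igraph 0.11.9 and matplotlib 3.10.9 were used.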

Additional observations from a re-analysis of the deposited data

Results flagged for a closer look

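The same contrast was measured in both fractions, and 6 member ratios had opposite signs with an interval that excluded 0 in each fraction, among those with at least 50 UMIs and at least 20 cells per library. Other ratios differed in sign with an interval that included 0 in at least 1 fraction. The share of all genes that met the same rule was not computed, so the count of 6 has no background beside it. No difference between fractions was tested, since each fraction has 1 library per arm.

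In B cells, for YUMM1.7 over naive, the log2 ratio of Fcer1g was -0.77 in enriched and 0.57 in depleted libraries, that of Fcer2a -0.29 and 0.0727, and that of Fcgr2b 0.28 and -0.14. For YUMMER1.7 over YUMM1.7, Fcer1g in B cells was 0.47 in enriched and -0.67 in depleted libraries. In NK cells Fcer1g for YUMMER1.7 over YUMM1.7 was 0.0951 in enriched and -0.20 in depleted libraries. In germinal-centre B cells Fcer1g for YUMM1.7 over naive was -0.88 in enriched and 1.17 in depleted libraries. In 4 of the 6, the gene was Fcer1g.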

How the results depend on the processing

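Of 233 log2 ratios, thinning to 2000 UMIs moved 91 and reversed 5, the mean of each cell's CPM moved 47 and reversed 1, finer clusters (Leiden resolution 2) moved 22 and reversed 1, keeping the receptor genes for clustering moved 17 and reversed 1, omitting doublet removal moved 18 and reversed 1, median-of-ratios scaling moved 15 and the stricter cell filter 5. Of 65 ratios past 1.5-fold, 447 of 456 recomputed values kept the direction and 388 stayed past it. The causes were not tested.

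In macrophages Fcgr2b for YUMMER1.7 over naive was 0.99 under the stricter filter, 1.03 thinned, 1.10 with finer clusters, 1.12 with receptor genes kept, 1.65 as the mean of cells and 1.13 without the shallow cluster, which was left out after seeing the data. For YUMM1.7 over naive it was 0.53 under the stricter filter, 0.56 thinned, 1.24 as the mean of cells and 0.80 without the shallow cluster. Fcgr1 there was 0.57 and 0.35 as the mean of cells. In non-classical monocytes Fcgr1 was 1.335 with finer clusters for YUMMER1.7 and 0.55 thinned for YUMM1.7, and Fcgr4 was -0.88 thinned for YUMMER1.7. Fcgr4 for YUMMER1.7 over YUMM1.7 in classical monocytes was 1.48 thinned. Neutrophil Fcer1g for YUMMER1.7 over naive was 0.54 thinned, 0.64 by median-of-ratios and 0.55 as the mean of cells. Fcer1a in mast cells and basophils was 1.27 thinned and 1.45 as the mean of cells. Under median-of-ratios Fcer2a in B cells for YUMMER1.7 over naive was -0.0598 in enriched and 0.047 in depleted libraries. In cDC2, Fcgr2b for YUMMER1.7 over naive was -0.21 with finer clusters and -0.28 with receptor genes kept.

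Reversed values were Fcgr3 in cDC2 for YUMMER1.7 over naive with receptor genes kept (0.12), Fcer2a in cDC2 for YUMM1.7 over naive with finer clusters (0.17), Fcgr3 in migratory dendritic cells for YUMMER1.7 over naive thinned (-0.55), and Fcer1g in enriched germinal-centre B cells for YUMM1.7 over naive without doublet removal (0.0125). In the depleted fraction they were Fcgr3 in NK cells for YUMM1.7 over naive, thinned (-0.21) and as the mean of cells (-0.16), and 3 thinned ratios of YUMMER1.7 over YUMM1.7: Fcer2a in migratory dendritic cells (0.11), Fcer1g in T cells (0.0194) and Fcer1g in germinal-centre B cells (-0.0237).

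No paired analysis was possible because each arm and fraction had 1 library, and leaving out a replicate was not possible for the same reason. Genes with few UMIs per class, such as Fcgr4 and Fcgrt in macrophages, are limited by counting error, and differences between pooled mice cannot be told apart from differences between arms.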

Other observations

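A small enriched cluster led by Retnla, Pf4 and Mrc1, which the marker lists did not name, held more Fcgr2b in YUMMER1.7 than any cluster described above. It had 37, 23 and 9 cells in YUMMER1.7, YUMM1.7 and naive. Fcgr2b stood at 731 CPM in YUMMER1.7 (442 UMIs) and 430 CPM in YUMM1.7 (143 UMIs), against 217 CPM in naive (17 UMIs). Fcgrt stood at 327 CPM in YUMMER1.7 (198 UMIs) and 78.2 CPM in YUMM1.7 (26 UMIs), against 115 CPM in naive (9 UMIs). YUMMER1.7 was above naive for both, with log2 ratios of 1.75 (1.06 to 2.55) and 1.51 (0.56 to 2.66), and these counting intervals rest on few cells. Fcer1g was 1908, 1363 and 1325 CPM in the same order.

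In the YUMMER1.7 enriched class of mast cells and basophils, all 124 UMIs of Fcer2a and 107 of 127 UMIs of Fcgr2b lay in 30 cells that met neither the mast-marker nor the basophil-marker rule. Of these, 2 cells held 54 and 60 UMIs of Fcer2a and 48 and 40 of Fcgr2b, beside 25 and 62 UMIs of B cell markers and 4 and 3 of mast cell markers, at 33020 and 48417 UMIs in all. Whether they were doublets was not tested.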
